A study of Rattus norvegicus with 8 samples.

Results

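The Egr factors (Egr1, Egr2, Egr3 and Egr4) and the Nr4a factors (Nr4a1, Nr4a2 and Nr4a3) were followed in the dentate gyrus of rats that had status epilepticus (SE), after estradiol (E2) replacement and after its oil vehicle. The 7 genes were taken by their symbols from 35250 gene names on a rat 2-colour oligonucleotide array, where 18 of 43379 non-control spots carried their 9 probes. All 8 rats were ovariectomized adult female Sprague-Dawley rats with seizures evoked by kainic acid: 4 received oil (COS) and 4 received E2 (CES). Per the labels, 4 E2 doses of 2 µg were given every 24 h, 2 before SE and 2 after, kainic acid was given at 16 mg/kg, and SE was stopped after 5 h with pentobarbital. The study's methods describe a lower kainic acid dose, E2 given as estradiol benzoate in doses that all preceded SE, and diazepam to end SE. They also give, in different places, an early and a later time of tissue collection. The time from seizures to sampling therefore cannot be settled here. Rats without seizures were not analysed here, so every value below compares seizured rats with each other.

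Egr and Nr4a genes are immediate-early genes: calcium entry and kinase signalling in a firing neuron start their transcription before any new protein is made. Egr proteins are zinc-finger factors that bind GC-rich sites and are restrained by the corepressors Nab1 and Nab2. Nr4a proteins are orphan nuclear receptors that bind DNA without a known natural ligand, as monomers on the NBRE site, and Nr4a1 and Nr4a2 also pair with retinoid X receptors. In the hippocampus both families are best known as markers and mediators of activity and of seizures.

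A level is the background-subtracted signal of a gene divided by the median valid spot of that rat, as log2, and a difference is CES minus COS on that scale. Valid spots (foreground at least 2 times background) numbered 32381 to 38553 in COS and 30690 to 35352 in CES, and 20825 genes had an unmarked spot valid in all 8 rats. Over these genes the median difference was -0.25. Differences and folds of single genes and probes below are raw, unless said to be relative to that median. CES replicate 2 stood apart from its group: across genes its levels correlated at 0.974 to 0.983 with the COS rats and at 0.954 to 0.964 with the other CES rats. Results are therefore given with it and, where it matters, without it. Nothing in the labels says that RNA was pooled, and p-values rest on the spread between these 8 animals. Each array held rats of a single group, so differences between arrays cannot be fully told apart from differences between groups. The exact permutation tests took no account of array or dye.

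The labelled tissue was checked on marker genes. Of 9 granule neuron markers 7 were quantified, among them Calb1, Nrgn and Slc17a7, while Prox1 was on the array but not valid in all rats. Their summed level (signal relative to the median spot) was 230.2 to 436 in COS and 356 to 433 in CES. Nrgn had the highest level of the list in every rat, so this sum follows mostly Nrgn. Some of the 7 were dim: Dsp cleared background well in 3 COS rats and 2 CES rats, and Tdo2 in 0 rats of either group. Whether the list separates granule neurons from other hippocampal neurons was not tested. The summed level of choroid plexus markers ran from 13.3 to 619 in COS and from 16.2 to 194 in CES. Those markers therefore varied widely between rats of both groups.

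Of the 6 factors that could be tested across all rats, 4 were lower in CES (Egr1, Egr2, Nr4a1 and Nr4a2) and 0 were higher. Over all genes tested 28.6% were called lower and 5.74% higher by the same limma test. The median of the 6 differences was -1.03, or -0.78 relative to all genes. All CES rats lay below all COS rats for 2 of the 6 (Egr2 and Nr4a1), and for 19.7% of all genes; all CES rats lay above all COS rats for none of the 6, and for 1.55% of all genes. Egr4 had a single spot that the scanner software marked as an outlier on 1 array, and it is given apart from these counts. Because bulk tissue was measured, fewer cells of a type and less RNA per cell cannot be told apart.

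These calls depended on the scaling and on single rats. When the scaling of every channel used only spots valid in all rats, the median difference of all genes moved from -0.25 to 0.14, and the calls over all genes moved from 5957 lower and 1195 higher to 1783 lower and 3384 higher. Of the 6 tested factors only Egr2 was then called lower (-1.65, limma adjusted p = 0.0196), while the median of the 6 relative to all genes was -0.78 under both scalings. Without COS replicate 3, Egr2 was again the only one of the 6 called (-1.85, adjusted p = 0.0449), and 1142 genes were called lower and 285 higher.

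**Figure D1:**
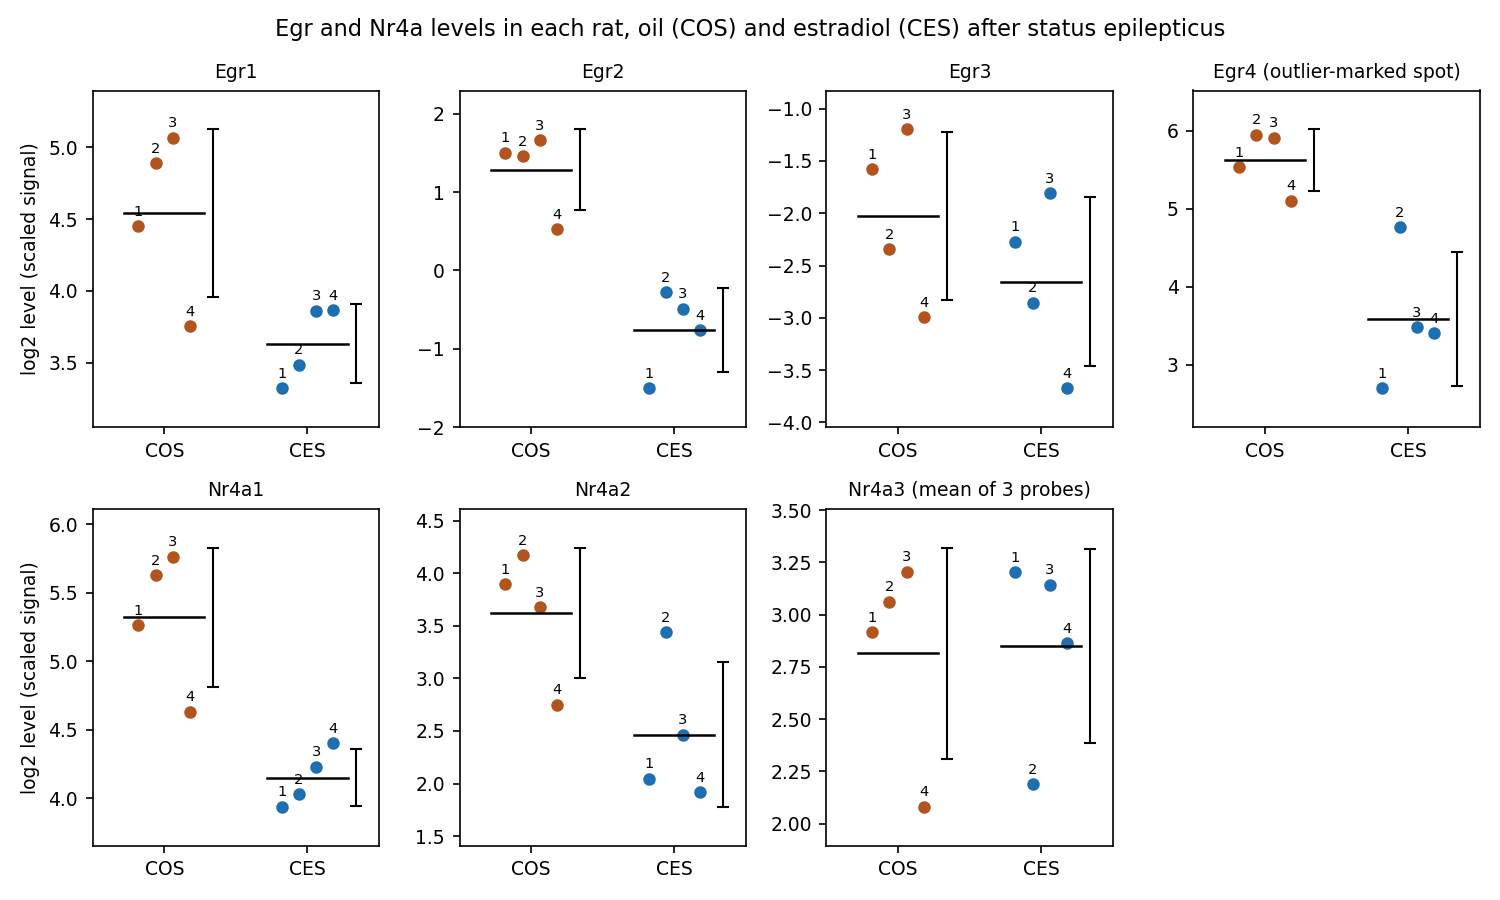
Log2 level (scaled signal, vertical axes of different range) of each Egr and Nr4a gene in the 4 COS and 4 CES rats; points are rats numbered by replicate, horizontal lines are group means and bars are 1 SD. Egr2, Egr4 and Nr4a1 show no overlap between groups, and CES replicate 2 is the highest CES rat for Egr2, Egr4 and Nr4a2.

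Each of the 60-base probes is placed by the array files on rat build rn4. The Egr1 probe lay at chr18:27347173-27347232 and the Egr3 probe at chr15:50478983-50479042, both on the plus strand, and the Egr2 probe at chr20:21883940-21883999 and the Egr4 probe at chr4:119765289-119765348, both on the minus strand. The Nr4a1 probe lay at chr7:140020442-140020501 on the plus strand and the Nr4a2 probe at chr3:38867021-38867080 on the minus strand. Exon and UTR positions of these probes were not analysed here.

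Egr2, also known as Krox20, which is needed for myelination by Schwann cells and hindbrain patterning and is induced in hippocampal neurons by strong activity, differed most among the tested factors. Its log2 level was 1.5, 1.45, 1.66 and 0.53 in COS replicates 1 to 4 and -1.50, -0.28, -0.49 and -0.76 in CES replicates 1 to 4. Every CES rat lay below every COS rat, and the lowest COS rat was replicate 4. The difference was -2.04 ± 0.32 (SE, n = 4 and 4; limma adjusted p = 0.00362), a 4.12-fold higher level in COS. The exact permutation test over the 8 rats, two-sided, gave p = 0.0286, the smallest that 4 against 4 allows. By the scanner software the spot rose well above background on 4 COS channels but only on 2 CES channels. Without CES replicate 2 the difference was -2.24 (adjusted p = 0.000291).

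Egr4, a family member with a largely neuronal expression, had log2 levels of 5.54, 5.95, 5.91 and 5.10 in the COS rats and 2.70, 4.77, 3.48 and 3.40 in the CES rats. No CES rat reached the lowest COS rat, and CES replicate 2 lay between the other CES rats and the COS rats. With the marked spot kept, the difference was -2.04 ± 0.37 (SE, n = 4 and 4; limma adjusted p = 0.00535 over the 21372 genes quantified with marked spots), and the exact permutation test gave p = 0.0286. The mark was on the array of COS replicates 1 and 2. With both of these rats missing for this gene, COS replicates 3 and 4 against the 4 CES rats gave -1.92 (limma adjusted p = 0.0215). Without CES replicate 2 the difference was -2.42 (adjusted p = 0.000107), and without COS replicate 3 it was -1.79 (adjusted p = 0.0580).

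Egr1 (Zif268 or NGFI-A), the best studied member and a factor in long-term potentiation, was read by 10 spots of 1 probe, of which 8 were unmarked. The mean over these spots was 4.45, 4.89, 5.06 and 3.76 in the COS rats and 3.32, 3.49, 3.86 and 3.86 in the CES rats. COS replicate 4 fell within the CES range, and the other COS rats lay above it. The difference was -0.91 ± 0.28 (SE, n = 4 and 4; limma adjusted p = 0.0315), while the exact permutation test gave p = 0.0857. The SD over the 8 spots was 0.26 to 0.28 within each COS rat and 0.08 to 0.11 within each CES rat, against an SD of 0.58 between COS rats and 0.27 between CES rats. Without CES replicate 2 the difference was -0.88 (adjusted p = 0.0373). The call was lost without COS replicate 1, 2 or 3 or CES replicate 1 (adjusted p from 0.0608 to 0.169), and after loess and Aquantile normalization (-0.58, adjusted p = 0.131).

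Egr3, which acts downstream of neuronal activity and in muscle spindle development, was dim. It was well above background in 1 COS rat and 1 CES rat. Log2 levels were -1.58, -2.34, -1.20 and -2.99 in COS and -2.27, -2.86, -1.81 and -3.67 in CES. In both groups the Cy5 rats (replicates 2 and 4) were the lower pair, and the groups overlapped. The difference of -0.62 ± 0.24 (SE, n = 4 and 4) did not pass the limma test (adjusted p = 0.0651), and the exact permutation p was 0.314. It passed once replicate number entered as a block (adjusted p = 0.0182), without CES replicate 2 (0.0162) and without CES replicate 3 (0.0359), and was -0.10 after loess and Aquantile normalization (adjusted p = 0.354).

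Nr4a1 (Nur77 or NGFI-B), the founding member of the orphan receptor group, had log2 levels of 5.26, 5.63, 5.76 and 4.63 in the COS rats and 3.94, 4.03, 4.23 and 4.40 in the CES rats. The groups did not overlap, and COS replicate 4 was closest to the CES rats. The CES rats spread less (SD 0.21) than the COS rats (SD 0.51). The difference was -1.17 ± 0.25 (SE, n = 4 and 4; limma adjusted p = 0.00798), or 2.25-fold higher in COS, with an exact permutation p of 0.0286. It was -1.14 without CES replicate 2 (adjusted p = 0.00663) and -0.97 without COS replicate 3 (adjusted p = 0.0651).

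Nr4a2 (Nurr1), needed for midbrain dopamine neurons and induced in the hippocampus during memory tasks, had log2 levels of 3.90, 4.17, 3.68 and 2.75 in COS and 2.05, 3.44, 2.46 and 1.92 in CES. CES replicate 2 was above COS replicate 4, and the other CES rats were below every COS rat. The difference was -1.16 ± 0.38 (SE, n = 4 and 4; limma adjusted p = 0.0403), and the exact permutation p was 0.0571. Without CES replicate 2 it was -1.53 (adjusted p = 0.00232). The call was lost without COS replicate 1, 2 or 3 or CES replicate 1 or 4 (adjusted p from 0.0512 to 0.184), and after loess and Aquantile normalization the difference was -0.74 (adjusted p = 0.191).

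Nr4a3 (NOR-1) was read by 3 probes with different results. In the coordinates of the array files (rat build rn4, plus strand) they lay at chr5:64727357-64727416, chr5:64753210-64753269 and chr5:64754182-64754241. The first is annotated in the files as transcript variant 2, the middle as transcript variant 1, and the last by an Ensembl transcript. The first probe is 25853 bases before the middle probe, and the last is 972 bases after the middle. The first 30 of each probe's 60 bases are shown to identify the 3 probes.
First probe: ttgggttctcctgcatttagatagctctac
Middle probe: tggccgttttgctaagactcaaactttgaa
Last probe: gtcttccatagttatcacaactatgagagc

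The first Nr4a3 probe read log2 levels of 2.79, 3.57, 3.72 and 1.53 in COS and 0.30, 1.97, -0.40 and -2.54 in CES. CES replicate 2 was above COS replicate 4, and the other CES rats were below every COS rat. Its difference was -3.07 ± 0.81 (SE, n = 4 and 4; limma over 24861 probes, adjusted p = 0.0171), the largest fall among the probes tested for these factors, with an exact permutation p of 0.0571. The spot was well above background in all 8 rats. Without CES replicate 2 the difference was -4.03 (adjusted p = 0.000141). Without COS replicate 2, COS replicate 3 or CES replicate 1 the adjusted p was 0.0518, 0.105 and 0.0653, and after loess and Aquantile normalization the adjusted p was 0.0706.

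The middle probe read 2.58, 2.49, 2.14 and 1.74 in COS and 2.82, 1.54, 2.40 and 1.99 in CES, with full overlap. Its difference was -0.05 ± 0.24 (SE, n = 4 and 4; limma adjusted p = 0.891). The last probe read 3.28, 2.91, 3.33 and 2.69 in COS and 4.27, 2.78, 4.36 and 4.14 in CES. Here 3 CES rats were above every COS rat, and CES replicate 2 lay among the COS rats. Its difference was 0.83 ± 0.27 (SE, n = 4 and 4; limma adjusted p = 0.0350), in the opposite direction to the first probe, with an exact permutation p of 0.114. Without CES replicate 2 it was 1.14 (adjusted p = 0.000526), and it missed the threshold without any 1 of the 4 COS rats, CES replicate 1 or CES replicate 3 (adjusted p from 0.0526 to 0.137). Of the 8 probes of these factors in the probe test, 5 were lower and 1 was higher, where 29.4% of all probes were called lower and 5.46% higher.

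**Figure D2:**
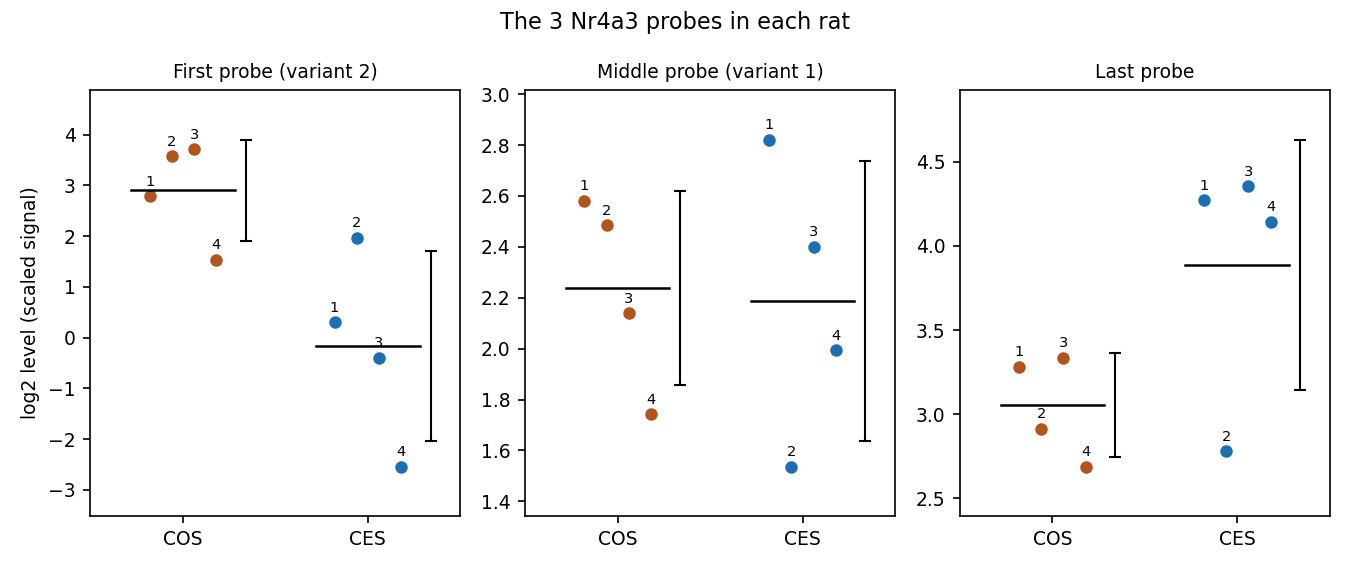
Log2 level (scaled signal, vertical axes of different range) read by each of the 3 Nr4a3 probes in the 4 COS and 4 CES rats; points are rats numbered by replicate, horizontal lines are group means and bars are 1 SD. The first probe is lower in CES, the middle probe overlaps, and the last probe is higher in every CES rat except replicate 2.

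The difference between probes was tested within rats, as the log2 ratio of 2 probes in the same rat. First over middle was 0.67 ± 0.81 in COS and -2.36 ± 2.06 in CES (SD, n = 4 each), a change of -3.02 (exact permutation test, two-sided, p = 0.0857). First over last was -0.15 ± 0.83 in COS and -4.06 ± 2.44 in CES (SD, n = 4 each), a change of -3.91 (exact permutation p = 0.0571). Middle over last was -0.82 ± 0.33 in COS and -1.70 ± 0.42 in CES (SD, n = 4 each), a change of -0.88 without overlap (exact permutation p = 0.0286, the smallest possible). The Benjamini-Hochberg adjusted exact p over these 3 ratios was 0.0857 for the first of them and 0.0856 for the other 2, so none of the 3 passed the threshold after adjustment. CES replicate 2 was inside the COS range for the ratios with the first probe. Without it, those changes were -3.95 and -4.99. As the mean of the 3 probes, Nr4a3 differed by 0.03 ± 0.24 (SE, n = 4 and 4; limma adjusted p = 0.926). Which transcripts carry each probe was not tested.

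The promoters of the 5 factors that were lower in CES, Egr4 included, were in the RefSeq table used here (build GRCr8), and those of Egr3 and Nr4a3 are not shown. Of each, the 250 bases before the annotated start were read, 5′ to 3′ on the gene's strand. They are shown for Egr1, Egr2, Egr4 and Nr4a1, the 4 whose promoters hold at least 2 of the matches marked here. Capitals mark matches on either strand to the CRE core (TGACG), the CArG box (the motif known for Srf binding), and the Egr site (GCGTGGGCG or GCGGGGGCG).
Egr1, chr18:26736828-26737077, plus strand: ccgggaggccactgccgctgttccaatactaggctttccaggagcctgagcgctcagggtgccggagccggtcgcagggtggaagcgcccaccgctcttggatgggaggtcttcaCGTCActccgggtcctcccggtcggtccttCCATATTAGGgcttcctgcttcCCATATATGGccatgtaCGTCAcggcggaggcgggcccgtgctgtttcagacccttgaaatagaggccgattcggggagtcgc
Egr2, chr20:21054442-21054691, minus strand: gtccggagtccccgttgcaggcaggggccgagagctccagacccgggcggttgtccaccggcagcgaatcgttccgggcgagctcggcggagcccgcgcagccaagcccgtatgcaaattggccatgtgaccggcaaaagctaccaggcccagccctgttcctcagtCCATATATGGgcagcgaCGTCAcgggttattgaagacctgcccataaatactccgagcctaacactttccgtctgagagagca
Egr4, chr4:119607818-119608067, minus strand: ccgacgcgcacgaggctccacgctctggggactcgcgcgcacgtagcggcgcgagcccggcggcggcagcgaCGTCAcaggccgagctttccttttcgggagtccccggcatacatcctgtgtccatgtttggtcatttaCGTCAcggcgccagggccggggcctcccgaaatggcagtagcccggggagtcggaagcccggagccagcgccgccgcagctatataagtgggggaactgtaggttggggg
Nr4a1, chr7:134259888-134260137, plus strand: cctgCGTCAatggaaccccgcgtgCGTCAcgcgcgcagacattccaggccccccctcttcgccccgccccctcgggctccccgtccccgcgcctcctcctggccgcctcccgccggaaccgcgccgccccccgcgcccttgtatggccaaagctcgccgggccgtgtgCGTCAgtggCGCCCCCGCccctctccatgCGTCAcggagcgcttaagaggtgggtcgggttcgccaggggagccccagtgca

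All 5 promoters held a CRE core, which 18.2% of 33469 promoters of the same length hold. Nr4a1 had 4 of them, Egr1 and Egr4 had 2 each, and Egr2 and Nr4a2 had 1 each, in Egr2 61 bases before the start. CArG boxes were found 95 and 73 bases before the start of Egr1 and 73 bases before that of Egr2, against 1.5% of all promoters. The Nr4a1 promoter held 1 Egr site (GCGGGGGCG, in 2.45% of promoters; the other form, GCGTGGGCG, is in 0.478% and in none of the 5). The full CRE (TGACGTCA, 1.59% of promoters), the NBRE (AAAGGTCA, 1.24%) and the full estrogen response element (a palindrome with a 3-base spacer, 0.0239%) were found in none of the 5. A single arm of that element (GGTCA, 35.4% of promoters, also part of the NBRE) was in Egr2 and Egr4. Their GC content ran from 52.0% in Nr4a2, near the median of 51.2% over all promoters, to 74.8% in Nr4a1. A match is a description of the letters and not evidence of binding.

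The regulators and protein partners of these factors were called at shares near those of all genes (28.6% lower and 5.74% higher). Of 29 quantified genes in that list 11 were lower and 2 higher (Rxrg and the phosphatase subunit Ppp3ca), with a median difference of -0.41. With the scaling over spots valid in all rats 5 were lower and 6 higher, and without COS replicate 3, 3 were lower and 1 higher. Crem, whose inducible repressor form feeds back on CRE genes, was lower by more than any other called gene of the list (-2.29 ± 0.29, limma adjusted p = 0.00300). Rps6ka3, a kinase that phosphorylates Creb, differed by -1.54 ± 0.25 (adjusted p = 0.00390). Elk3, a ternary complex factor that pairs with Srf, differed by -1.26 ± 0.31 (adjusted p = 0.0142). Creb1 itself differed by -1.05 ± 0.22 (adjusted p = 0.00701), and its relative Atf1 by -1.13 ± 0.21 (adjusted p = 0.00496).

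Srf (-0.39 ± 0.18, limma adjusted p = 0.124), Nab1 (-0.30 ± 0.17, adjusted p = 0.184) and Nab2 (-0.42 ± 0.20, adjusted p = 0.138) did not pass the test. Nab2 was well above background in only 2 rats of each group. Of the 3 retinoid X receptors, Rxrb did not pass the test (-0.012 ± 0.19, adjusted p = 0.968). Rxrg was higher in CES, with log2 levels of 1.55, 0.86, 1.77 and 0.95 in COS and 2.43, 1.96, 3.39 and 2.84 in CES, so that all CES rats were above all COS rats (1.37 ± 0.26, limma adjusted p = 0.00510). Rxra differed by -0.73 ± 0.18 (adjusted p = 0.0143), and its spots cleared background well in 0 COS rats and 1 CES rat.

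**Figure D3:**
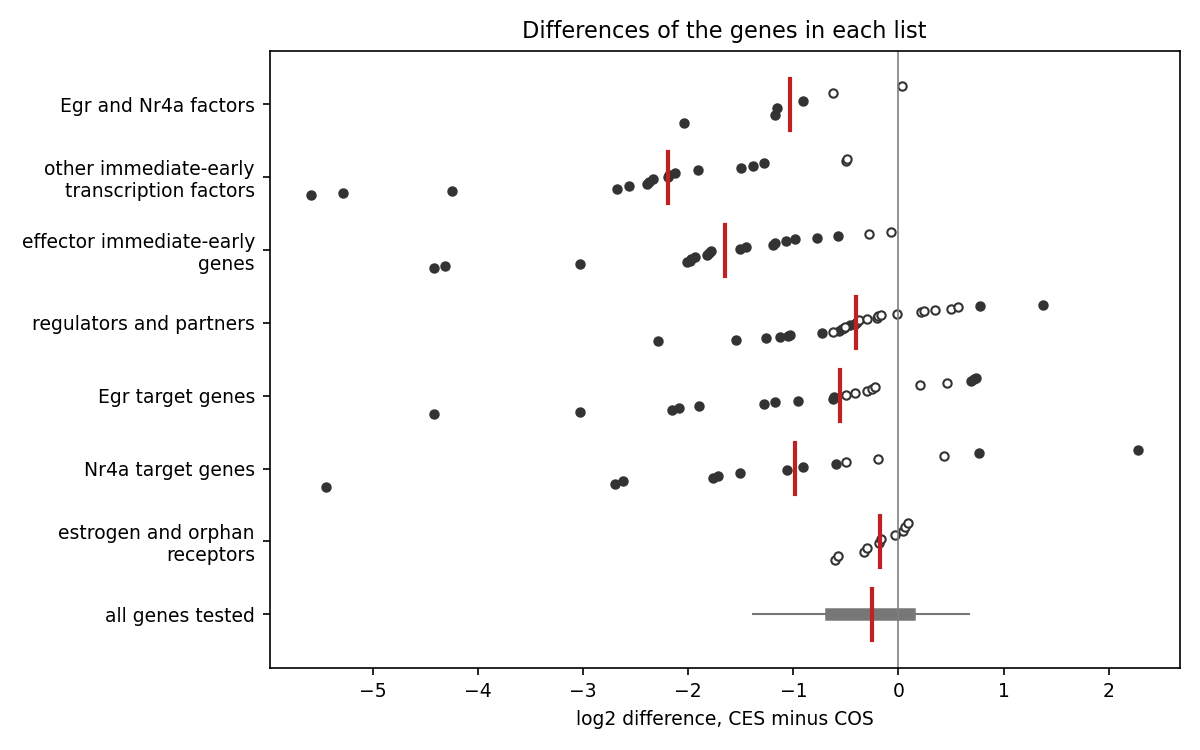
Log2 difference, CES minus COS, of each quantified gene in 7 lists (points: filled where the limma adjusted p is under 0.05, open otherwise; red lines: list medians) and, for all 20825 genes tested, the median with bars from the 25th to the 75th and lines from the 5th to the 95th percentile. The other immediate-early transcription factors have a median of -2.19, the Egr and Nr4a factors one of -1.03 and all genes one of -0.25.

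The other immediate-early genes were mostly lower in CES, where 28.6% of all genes were called lower and 5.74% higher. Of 17 quantified transcription factors of this kind 15 were lower and 0 higher, with a median difference of -2.19. Atf3, induced by stress and injury, differed by -5.59 ± 0.93 (limma adjusted p = 0.00391), and the AP-1 subunits Fosl1 and Fos by -5.29 ± 0.95 and -4.25 ± 0.74. Myc, Klf4 and Junb differed by -2.68, -2.56 and -2.39. In each of these 6 genes CES replicate 2 was the highest CES rat, for Fos at 3.73 against -0.22 to 0.25 in the other CES rats and 4.27 to 5.82 in COS. Of 20 effector immediate-early genes 18 were lower and 0 higher, with a median of -1.65. They were led by the stress sensors Gadd45g (-4.42 ± 0.64) and Gadd45b (-3.03 ± 0.34), the activin subunit Inhba (-4.32 ± 0.70), the phosphatase Dusp1 (-2.01 ± 0.24) and the kinases Pim1 (-1.99 ± 0.47) and Sik1 (-1.98 ± 0.36), with limma adjusted p from 0.00250 to 0.0113. Pim1 was well above background in only 1 CES rat. Its level was 1.37 in COS replicate 3 and -1.57 to -0.93 in the other COS rats. With the scaling over spots valid in all rats 15 of the transcription factors and 8 of the effectors were called lower, and without COS replicate 3 these counts were 13 and 7.

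Genes reported elsewhere as targets were taken from general knowledge. Of 20 quantified Egr targets 10 were lower and 3 higher, with a median of -0.56. The adhesion receptor Cd44 (-4.42 ± 0.79), the adhesion molecule Icam1 (-3.03 ± 0.39), the neurotrophin receptor Ngfr (-2.15 ± 0.43), fibronectin Fn1 (-2.09 ± 0.41), the cytokine Tgfb1 (-1.90 ± 0.40) and tissue factor F3 (-1.28 ± 0.24) were lower, with limma adjusted p from 0.00309 to 0.00779. The 3 higher genes were Gabra4, Syn2 and Ache, named after their values were seen. Of 14 quantified Nr4a targets 9 were lower (64.3%) and 2 higher (14.3%), with a median of -0.99, or -0.73 relative to all genes. The matrix protein Spp1 differed by -5.45 ± 1.40 (limma adjusted p = 0.0156) with overlap, since CES replicate 2 read 6.35 and COS replicate 4 read 6.13. Gch1, which makes the cofactor of tyrosine hydroxylase, differed by -2.70 ± 0.45, the stress peptide gene Crh by -2.62 ± 0.27, the receptor Ret by -1.77 ± 0.18 and the cyclin Ccnd1 by -1.71 ± 0.25. Ddc, which makes dopamine and serotonin from their precursors, was higher in CES (2.28 ± 0.34, limma adjusted p = 0.00340). The other gene called higher was Aldh1a1, named after its value was seen. Without COS replicate 3 the genes called lower numbered 1 among the Egr targets and 5 among the Nr4a targets, and with the scaling over spots valid in all rats 5 in each list. Those called higher numbered 0 and 1 without COS replicate 3, and 4 and 3 with that scaling. Among all 20825 genes, 1142 were lower and 285 higher without COS replicate 3, and 1783 and 3384 with that scaling.

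Estrogen receptors and other orphan receptors gave no call in either direction among 10 quantified genes by limma, with 2 at an unadjusted p under 0.05. Among all genes tested 28.6% were called lower and 5.74% higher. With the scaling over spots valid in all rats 2 of the 10 were called higher, and 2 were called lower without CES replicate 2 and 1 without CES replicate 3. Esr2 differed by 0.05 ± 0.17 (limma adjusted p = 0.852), and 0 of 8 rats had it well above background. Esr1 was on the array but was not valid in all rats.

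The 5 genes most like the factors were sought among 8206 named genes well above background in all rats, by the root mean square distance between centred log2 levels over the 8 rats and the mean profile of the 6 tested factors. This distance is a description over 8 rats that share the same arrays. Cited2, a co-regulator that binds Crebbp and Ep300, was closest at 0.079. Next came the potassium channel Kcnk6 (0.123), the nuclear pore protein Nup188 (0.142), the histone demethylase Kdm6b (0.144) and Rcl1, which acts in ribosome assembly (0.152). The factors themselves lay farther from their own mean, from 0.202 for Egr1 and 0.224 for Nr4a1 to 0.599 for Nr4a3. In the mean profile of the tested factors COS replicate 4 was the lowest COS rat, at -0.31 against 0.64 to 0.93 in the others.

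Marker lists of other cell types held calls in both directions, to be read against the 28.6% of all genes called lower and 5.74% higher. Of 8 microglia and macrophage markers 4 were lower and 1 higher in CES. Their summed level was 57.8 to 101 in COS and 31.1 to 46.2 in CES. Cd68 (-2.19), Itgam (-1.92), Tyrobp (-1.85) and Csf1r (-0.92) were lower and P2ry12 (0.93) was higher. Of 6 interneuron markers 3 were lower (the peptides Npy, Sst and Vip) and 0 higher. Their summed level was 344 to 547 in COS and 98.0 to 282 in CES. Npy and Sst had the highest levels of the list in every rat, so this sum follows mostly Npy and Sst. Gad1 (-0.57), Gad2 (-0.58) and Pvalb (0.51, higher in CES) did not pass the test.

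Of 7 astrocyte markers 1 was lower (S100b) and 2 higher (Gja1 and Aldh1l1), with summed levels of 178 to 195 in COS and 151 to 232 in CES. Of 7 oligodendrocyte markers none was called by limma (0 at an unadjusted p under 0.05), with 228 to 412 in COS and 305 to 471 in CES. Of the granule neuron markers 3 were lower (Dsp, C1ql2 and Tdo2) and 2 higher (Slc17a7 and Syt1). Of 5 markers of pyramidal neurons 1 was lower (Man1a1) and 2 higher (Fibcd1 and Wfs1), and of 5 endothelial markers 2 were lower (Flt1 and Tek) and 1 higher (Slco1a4). Fibcd1 was well above background in 0 COS rats and 2 CES rats. No limma call was made among 5 choroid plexus and 2 blood cell markers (0 and 0 at an unadjusted p under 0.05). Without COS replicate 3 the calls in these marker lists were 1 lower and 1 higher for microglia and macrophages, 1 higher for pyramidal neurons and 0 for the others. With the scaling over spots valid in all rats the lower calls were 0 for granule neurons, pyramidal neurons, astrocytes and endothelial cells, 2 for microglia and macrophages and 2 for interneurons. Granule neuron markers then had 3 higher calls, and over all genes the higher calls rose from 1195 to 3384. Higher calls in the other marker lists are not given for this scaling. The part of these shifts in the Egr and Nr4a values was not tested.

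**Figure D4:**
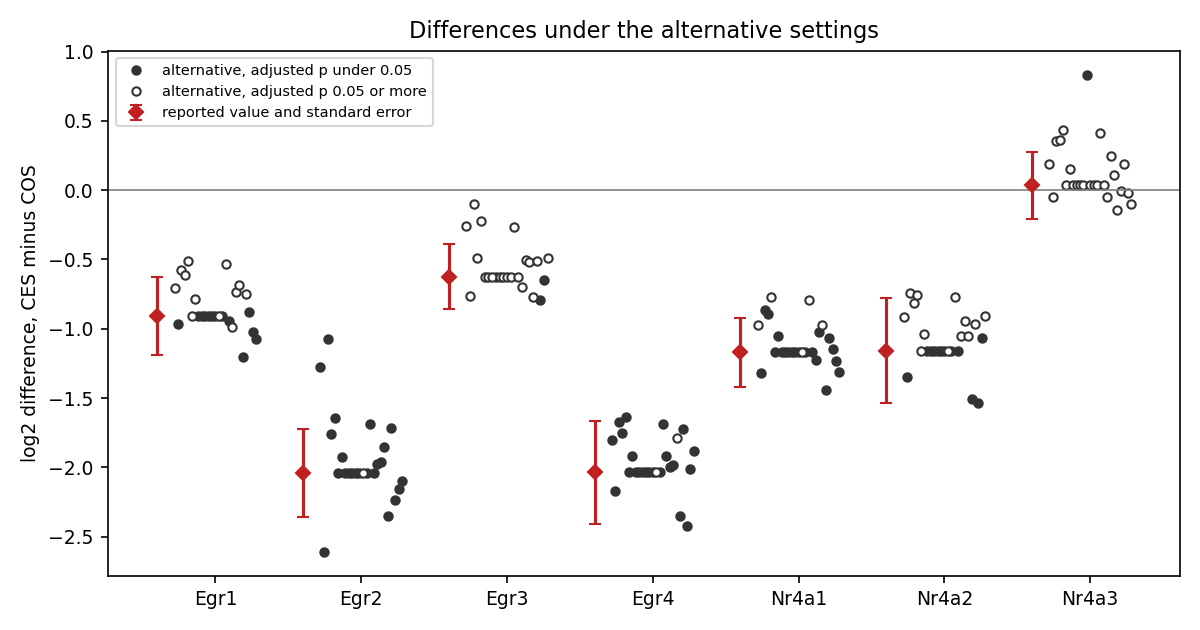
Log2 difference, CES minus COS, of each factor as reported (red diamonds, bars 1 standard error) and under each alternative setting (filled circles: adjusted p under 0.05; open circles: 0.05 or more). Egr2 and Egr4 stay below -1 under every setting shown, and Nr4a3 lies on both sides of 0.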

How the data were processed

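RNA of 8 rats (4 COS, 4 CES) was hybridized to 4 arrays of a single slide, each holding 2 rats of one group, replicates 1 and 3 in Cy3 and 2 and 4 in Cy5. The authors deposited scanner intensity values (Agilent Feature Extraction 10.7.3.1, per the submitters' processing notes) and a log2 table, which equals the background-subtracted median signal in log2 minus a constant per channel. Each array held a single group, so array entered as a random block.

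From the intensities, spots with a mean foreground at least 2 times the median local background in all 8 rats were kept (26294 spots), outlier-marked spots were left out, and the background-subtracted signal was divided by the channel's median valid spot, averaged per gene and log2 transformed. Differences were fitted with limma 3.58.1 (R 4.3.3; group and dye, array as random block by duplicateCorrelation, correlation -0.01) and Benjamini-Hochberg adjusted over 20825 genes, with 0.05 as threshold. Exact permutation tests were two-sided and went through every split of the 8 rats (Python 3.11.15, numpy 2.4.6). Their adjustment over the 3 Nr4a3 ratios used scipy 1.17.1. The fit was tested on simulated data for the CES and COS comparison (20825 genes). It recovered 66% of log2 changes of size 1 and 97% of size 2, with 17 false calls of 180. Unlike the data, the simulation changed only a small part of the genes and had no shift between groups over all genes. These figures therefore may not carry over to the data. Because Egr4's only spot was outlier-marked, a setting chosen after seeing the data kept such spots. The number of arrays limits the precision.

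The genes named are the 7 factors, and from each list up to 6 called genes with the largest absolute difference. Nab1, Nab2, Rxra, Rxrg, Srf, Creb1, Esr1 and Esr2 were named whatever their call. Also named were the 5 genes nearest the factors' mean profile. Outside this rule, Ppp3ca was named after its value was seen, as were Gabra4, Syn2, Ache and Aldh1a1. Rxrb, Gad1, Gad2, Pvalb, Calb1, Nrgn and Prox1 were also named outside it. Members and lists were chosen with earlier results of these data known; 1 cell type marker is not reported here. Alternatives covered background correction, normalization, filters, model terms, probe choice, the methods' t-test and leaving out each rat.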

Additional observations from a re-analysis of the deposited data

Results flagged for a closer look

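In 8 of 140 groups of 4 rats, 1 rat lay far from the other 3 on the log2 level. The gap to the nearest rat exceeded Dixon's critical value for 4 samples, which chance exceeds in about 1 of 20 such groups. CES replicate 2 was that rat in 6 of the 8. It read 2.78 for the last Nr4a3 probe, below the other CES rats, and -0.31 for Ddc. Its levels were 3.73 for Fos, 2.53 for Klf4, 5.45 for Gadd45g and 4.32 for Cd44. COS replicate 4 stood apart for Slc17a7 (4.55), and CES replicate 4 for Tek (-2.01). No gene-level value of an Egr or Nr4a factor stood apart in this way.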

How the results depend on the processing

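The 4 factors called lower became 1 with normexp, 2 with loess and Aquantile, 2 with quantile normalization, 1 with scaling over spots valid in all rats, 2 without a filter, 2 with foreground at least 3 times background, 0 with the methods' t-test after adjustment (4 of 6 at an unadjusted p under 0.05) and 1 in the deposited log2 table, and 1 to 5 on leaving out each rat. With the brightest probe per gene, 1 was higher in place of 0 (Nr4a3, 0.83). In the same order of settings, the 5957 genes called lower became 492, 2208, 2257, 1783, 2745, 2811, 0 (5909 in both directions unadjusted) and 1927, and 1142 to 6954 on leaving out each rat. The 1195 called higher became 139 with normexp, 3252 with loess, 3023 with quantile, 3384 with scaling over spots valid in all rats, 394 without a filter, 0 with the t-test and 3213 in the deposited table, and 285 to 1812 on leaving out each rat. Nr4a3 was -0.049 with the processed signal and -0.15 to 0.25 on leaving out each rat. Its middle probe was 0.10 with normexp, 0.30 with loess, 0.32 with quantile, 0.35 with scaling over spots valid in all rats, and -0.21 to 0.16 on leaving out each rat. The cause was not tested.

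With the replicate block 5 of the 6 factors were lower, Egr3 among them (adjusted p = 0.0182), with 6055 genes lower and 1050 higher. Rats with the same number correlated in their deviations at 0.214 to 0.346, and at -0.283 to 0.09 once dye was removed, so they were taken to share only a number. Dim spots limit Egr3, which was well above background in 2 of 8 rats.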
